A study of Mus musculus with 4 samples.

Results

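The genes described here are 10 genes by which endothelial cells, the cells that line blood vessels, are commonly recognised: Pecam1, Cdh5, Egfl7, Emcn, Cd93, Ptprb, Vwf, Btnl9, Rgcc and Cd34. They are 10 of 32285 genes counted, were taken by name, and all 10 had UMIs (unique molecular identifiers, each a count of 1 captured RNA molecule) in every library. The libraries came from left ventricle of male wild-type C57BL/6J mice, 1 library per condition: young sham and young I/R at 3 to 5 months of age, and aged sham and aged I/R at 24 to 26 months. I/R is ischemia/reperfusion, in which the left anterior descending coronary artery was closed for 45 min and flow was restored for 24 h. The sample labels call both sham samples healthy and unaltered and give nuclear RNA as the molecule, while the study describes sham surgery and single cells. Neither the labels nor the study's text state how many mice a library holds. Each combination of age and injury is 1 library, so an effect of either cannot be told apart from a difference between single libraries. No difference between conditions has a replicate check or a p-value.

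Endothelial cells form the inner lining of every vessel and of the heart chambers, and in the ventricle most of them belong to the capillaries that run between cardiomyocytes. They hold to each other through junction proteins such as PECAM1 and VE-cadherin, the product of Cdh5, carry sialomucins such as endomucin and CD34 on their surface, and store von Willebrand factor for release on injury. After ischemia and reperfusion the lining of a vessel can become leaky, bind leukocytes and lose or replace cells.

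The UMIs were summed over all barcodes of a library and are given as CPM, UMIs per 1000000 UMIs of that library. The libraries held 91124 to 102883 barcodes and 25836175 to 66767829 UMIs, with medians of 244 and 374 UMIs per barcode in young sham and I/R and of 391 and 675 in aged sham and I/R. Between 7.44% and 7.92% of the barcodes of a library carried a sequence also found in another library. In that order of libraries the 10 genes together took 25101, 24696, 39320 and 64108 UMIs, which is 0.0972%, 0.0622%, 0.0951% and 0.0960% of each total. As CPM is a share of the library total, a change in a sum can come from other RNA in that total. It can also come from the number of endothelial cells or from their RNA per cell, and these cannot be told apart. Intervals in the text are 95% intervals and cover counting error only.

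The sequences upstream of 3 transcription starts are shown because their genes differed in direction after I/R: Emcn and Cd34 were lower in both I/R libraries, while Rgcc was higher in young I/R. RefSeq upstream sequences were matched for 5 of the 10 genes, Egfl7 with 3 starts and Emcn, Btnl9, Rgcc and Cd34 with 1 start each. Each run is the 250 bases before the RefSeq start on GRCm38.p6, which lies a few bases from the start in the annotation used for gene positions, written from 5′ to 3′ on the strand of the gene, with every GGAA, the core of the sites that ETS factors bind, and its reverse TTCC in capitals. ETS factors such as ERG and FLI1 are known regulators of endothelial genes.
Emcn (chr3:137340828-137341077, plus strand): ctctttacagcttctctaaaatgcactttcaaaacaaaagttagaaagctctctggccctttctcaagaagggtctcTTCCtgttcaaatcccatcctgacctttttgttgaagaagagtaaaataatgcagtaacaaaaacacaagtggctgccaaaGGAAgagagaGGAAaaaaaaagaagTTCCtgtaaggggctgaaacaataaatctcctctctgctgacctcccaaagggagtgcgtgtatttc
Cd34 (chr1:194938571-194938820, plus strand): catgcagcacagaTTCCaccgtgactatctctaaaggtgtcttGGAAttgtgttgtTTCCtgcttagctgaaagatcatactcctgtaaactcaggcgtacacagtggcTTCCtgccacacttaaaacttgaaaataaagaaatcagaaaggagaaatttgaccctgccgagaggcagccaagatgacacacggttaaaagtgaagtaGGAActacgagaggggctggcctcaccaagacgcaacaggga
Rgcc (chr14:79301636-79301885, minus strand): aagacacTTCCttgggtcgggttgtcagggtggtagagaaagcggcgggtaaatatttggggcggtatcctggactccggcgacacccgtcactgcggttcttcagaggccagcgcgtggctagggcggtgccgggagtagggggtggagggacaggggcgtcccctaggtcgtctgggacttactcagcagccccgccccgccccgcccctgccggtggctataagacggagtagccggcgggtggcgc
The window of Emcn held 4 matches, that of Cd34 5, that of Btnl9 5 and that of Rgcc 1, and the Egfl7 windows held 5, 3 and 1. At least 1 match was present in 93.4% of all 32851 windows of the same length, with a median of 3, so the counts do not set these genes apart. The longer GGAAGT or its reverse ACTTCC, which contains the shorter motif, was present in 2 of the 3 windows of Egfl7, in those of Btnl9 and Rgcc, and in 19.7% of all windows. A match of letters describes the sequence and says nothing of binding.

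Egfl7 also hosts a microRNA that is abundant in endothelial cells and acts on regulators of vascular growth and adhesion. Its mature form is shown with the seed, bases 2 to 8, in capitals.
mmu-miR-126a-3p (chr2:26591402-26591423, plus strand, GRCm38.p6): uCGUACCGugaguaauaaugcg
The hairpin lies in an intron of 8 of the 9 annotated Egfl7 transcripts that span it and in an exon of the other. The libraries capture polyadenylated RNA, and the mature microRNA was not counted.

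Young I/R had less of these genes in sum than young sham. Summed over the 10 genes the level was 972 and 622 CPM in young sham and I/R and 951 and 960 CPM in aged sham and I/R. The young I/R library was lowest, at a log2 ratio to young sham of -0.64 (-0.67 to -0.62), while aged I/R and aged sham differed by 0.014 (-0.0039 to 0.032). Gm42418, a transcript that overlaps ribosomal RNA, took 11.5% and 19.4% of the UMIs in young sham and I/R and 14.0% and 13.8% in aged sham and I/R, and mitochondrial genes took 10.0% and 14.1% and 15.6% and 9.98%. Without these and Malat1 in the totals the young ratio was -0.50. The median of 12465 genes, those that reached 100 UMIs in the young libraries together, was itself lower in young I/R, at -0.44, so that part of the difference was shared with most genes. Scaled to that median, here called gene-wise scaling, the 10 genes together were lower in young I/R by 0.20 on the log2 scale. Egfl7 held 29.7% of the UMIs of the 10 genes in young sham. Without it the rest, scaled by totals, stood at -0.48 (-0.51 to -0.45) in young and 0.16 (0.14 to 0.18) in aged I/R over sham. That young value is near the -0.44 of the median gene. Without Ptprb instead, the aged value was -0.12 (-0.14 to -0.098), so the sums depend on single genes.

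In young I/R, 6 of the 10 genes were lower by 1.5-fold or more than in the young sham library, against 41.9% of all genes, and 1 was at least 1.5-fold higher, against 5.35%. Their median log2 ratio was -0.62. With gene-wise scaling, 2 genes were lower, against 21% of all genes, and 1 was higher, against 17.6%. At a 2-fold limit 2 were lower, against 22%, and 0 higher, against 2.43%. In aged I/R, Ptprb and Vwf, 2 of the 10 genes, were at least 1.5-fold higher than in aged sham, against 14.4% of 13722 genes, and 0 were lower, against 7.43%. With gene-wise scaling 1 was higher, against 11.2%, and 0 lower, against 10.2%, and at 2-fold 0 were higher or lower, against 3.58% and 1.5%. In aged mice the median of the 10 genes was -0.15 and that of all genes 0.087. The number of genes past the limit is thus read against a background in which many genes differed.

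**Figure D1:**
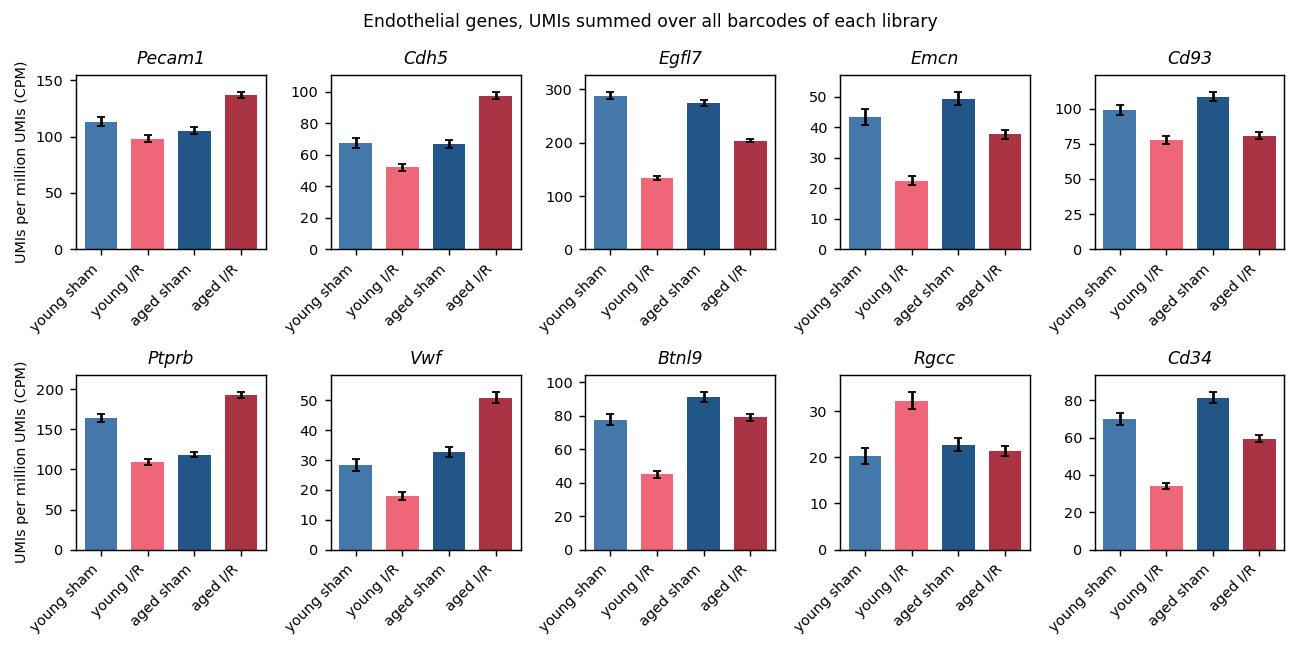
Level of each of the 10 genes in the 4 libraries, in UMIs per 1000000 UMIs summed over all barcodes (bars, linear axis from 0, 1 library per bar), with exact Poisson 95% intervals for counting error. Egfl7, Emcn, Cd34, Cd93 and Btnl9 are lower in both I/R libraries than in the sham library of the same age. Pecam1, Cdh5, Ptprb and Vwf are highest in aged I/R, and Rgcc is highest in young I/R.

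The junction genes and Vwf were highest in the aged I/R library, and gene positions beside the names are those of the annotation on GRCm38. Pecam1 (chr11:106654217-106750628, minus strand), an adhesion molecule at the contacts between endothelial cells that leukocytes and platelets also carry, measured 113 and 98.3 CPM in young sham and I/R and 105 and 137 CPM in aged sham and I/R. The log2 ratio, I/R over sham, was -0.20 (-0.27 to -0.13) in young and 0.38 (0.33 to 0.43) in aged mice. The young value turned to 0.24 with gene-wise scaling, whereas aged I/R was higher on every scale used. Neutrophil genes, 6 of 6 with UMIs in each library, summed to 14.7 and 101 CPM in young sham and I/R and to 24.6 and 101 CPM in aged sham and I/R, and their part in the Pecam1 values was not tested.

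Cdh5 (chr8:104101625-104144511, plus strand), the cadherin of endothelial adherens junctions, had 67.5 and 52.0 CPM in young sham and I/R and 67.0 and 97.5 CPM in aged sham and I/R. Both sham libraries were alike within counting error, at a log2 ratio of -0.012 (-0.099 to 0.075). The I/R library was lower in young mice, at -0.38 (-0.47 to -0.28), and higher in aged mice, at 0.54 (0.48 to 0.61), and with gene-wise scaling the young value was 0.066. Ptprb (chr10:116275523-116389535, plus strand) encodes the endothelial receptor phosphatase VE-PTP, which acts on the receptor TIE2 and on VE-cadherin. Its level was 164 and 109 CPM in young sham and I/R and 118 and 193 CPM in aged sham and I/R. Ptprb was lower in young I/R by a log2 ratio of -0.59 (-0.65 to -0.53) and 1.63-fold higher in aged I/R, at 0.70 (0.66 to 0.75) on the log2 scale. Between the sham libraries it stood at -0.47 (-0.53 to -0.41) for aged over young, and at -0.33 with gene-wise scaling.

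Vwf (chr6:125546774-125686679, plus strand), the platelet-binding glycoprotein that endothelial cells store, measured 28.3 and 18.0 CPM in young sham and I/R and 32.7 and 51.0 CPM in aged sham and I/R. The log2 ratio of I/R to sham was -0.65 (-0.80 to -0.50) in young and 0.64 (0.55 to 0.73) in aged mice. Aged I/R therefore had 2.83-fold the level of young I/R, the widest gap between these libraries among the 10 genes, and it stayed the widest of the higher genes with gene-wise scaling, at a log2 ratio of 1.07. Platelets carry this factor too, and 7 platelet genes, all with UMIs in each library, summed to 17.6 and 20.7 CPM in young sham and I/R and to 24.6 and 32.0 CPM in aged sham and I/R. Their part in the Vwf values was not tested.

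The secreted factor and the surface mucins were lower after I/R at both ages. Egfl7 (chr2:26580014-26593120, plus strand), a secreted factor of the vessel wall, measured 289 and 134 CPM in young sham and I/R and 275 and 204 CPM in aged sham and I/R. It was lower in I/R by a log2 ratio of -1.11 (-1.16 to -1.06) in young mice and by -0.43 (-0.47 to -0.39) in aged mice. Agpat2 overlaps Egfl7 on the other strand and was counted apart, with 783 to 1294 UMIs per library against 5309 to 13613 for Egfl7.

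Cd34 (chr1:194938819-194961279, plus strand), a sialomucin of endothelial cells that blood progenitors and cardiac fibroblasts also express, had 69.9 and 34.1 CPM in young sham and I/R and 81.5 and 59.5 CPM in aged sham and I/R. The log2 ratio of I/R to sham was -1.04 (-1.14 to -0.93) in young and -0.45 (-0.52 to -0.39) in aged mice. Emcn (chr3:137341067-137432185, plus strand), the endomucin of capillary and venous endothelium, had 43.4 and 22.5 CPM in young sham and I/R and 49.4 and 37.7 CPM in aged sham and I/R. Its ratios were -0.95 (-1.07 to -0.82) and -0.39 (-0.48 to -0.31). Egfl7, Cd34 and Emcn were thus below sham at both ages, and they stayed so under every scaling and barcode filter tried. In CPM, Cd93 and Btnl9, described next, were also below sham at both ages.

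Cd93 (chr2:148436640-148443563, minus strand), a transmembrane receptor of endothelial cells, measured 98.9 and 77.5 CPM in young sham and I/R and 109 and 80.8 CPM in aged sham and I/R. Its I/R to sham ratio was -0.35 (-0.43 to -0.28) in young and -0.42 (-0.48 to -0.37) in aged mice, and gene-wise scaling turned the young value to 0.092. Btnl9 (chr11:49165585-49187159, minus strand), a butyrophilin-like gene enriched in capillary endothelium, had 77.6 and 44.9 CPM in young sham and I/R and 91.0 and 79.1 CPM in aged sham and I/R. The ratio was -0.79 (-0.88 to -0.70) in young and -0.20 (-0.26 to -0.14) in aged mice. Unlike Cd93, Btnl9 stayed below sham at both ages with gene-wise scaling.

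Rgcc (chr14:79288756-79301645, minus strand), a regulator of the cell cycle that responds to complement, went against the rest in CPM in young I/R. With gene-wise scaling Pecam1, Cdh5 and Cd93 were above young sham too. It had 20.2 and 32.2 CPM in young sham and I/R and 22.8 and 21.4 CPM in aged sham and I/R, so only the young I/R library was high. Rgcc was 1.60-fold higher in the young I/R library than in its sham, a log2 value of 0.68 (0.53 to 0.83), and 1.12 with gene-wise scaling. In aged mice the ratio was -0.091 (-0.21 to 0.029), within counting error of no difference in CPM. Relative to genes of similar length, described below, it was -0.13 (-0.25 to -0.0093). Rgcc had the fewest UMIs of the 10 genes in young sham, 521, and the interval of its level there was 18.5 to 22.0 CPM.

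Between the sham libraries the genes differed by less than 1.5-fold. None of the 10 was 1.5-fold higher or lower in aged than in young sham, against 6.12% and 16.9% of 12901 genes, and the same held with gene-wise scaling, against 9.88% and 10.8%, and at 2-fold, against 1.57% and 4.49%. Emcn, Cd93, Vwf, Btnl9, Rgcc and Cd34 were higher in aged sham, at log2 ratios from 0.13 to 0.23, while all genes had a median of -0.14. With gene-wise scaling the median of the 10 genes was 0.29, on a scale that sets the median of all genes to 0. Between the I/R libraries, 7 of the 10 were at least 1.5-fold higher in aged mice, against 39.3% of 13434 genes, and Rgcc alone was lower, against 3.29%, at -0.59 (-0.70 to -0.48). Scaled to the median gene, which was higher in aged I/R by a log2 ratio of 0.43, Vwf remained higher past 1.5-fold, against 16.4% of genes, and Rgcc lower, against 14%, and Cd93 turned from 0.061 to -0.37. At 2-fold 1 gene was higher, against 16.8%, and 0 lower, against 0.863%.

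Gene length moved with these differences. The median log2 ratio of all genes in young I/R over young sham was -0.21 for genes under 10 kb, -0.36 for 10 to 30 kb, -0.54 for 30 to 100 kb and -0.74 for genes over 100 kb. For aged I/R over sham the order was the other way, with -0.066, 0.038, 0.16 and 0.24. The 4 members that were higher in aged I/R are long: Cdh5 spans 42.9 kb, Pecam1 96.4 kb, Ptprb 114 kb and Vwf 140 kb. Those that were lower are mostly short, at 6.92 kb for Cd93, 13.1 kb for Egfl7, 21.6 kb for Btnl9 and 22.5 kb for Cd34, while Emcn spans 91.1 kb. The nuclear transcript Malat1 took 7.34% and 2.22% of the UMIs in young sham and I/R, and 2.88% and 4.33% in aged sham and I/R. The part of gene length and of nuclear RNA in the members' differences was not tested beyond the following comparison.

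Against genes of similar length, 9 of the 10 genes kept their side at both ages. The median of all genes in the same length class was subtracted from each member, a comparison chosen after the values had been seen. Pecam1 then stood at 0.34 in young and 0.22 in aged mice, Cdh5 at 0.16 and 0.38, Ptprb at 0.15 and 0.46, and Vwf at 0.090 and 0.40, where the young Vwf interval (-0.061 to 0.24) included 0. Egfl7 stood at -0.75 and -0.47, Cd34 at -0.67 and -0.49, Emcn at -0.40 and -0.55, Btnl9 at -0.43 and -0.24, and Cd93 at -0.15 and -0.36. Only Rgcc changed side, at 1.04 in young and -0.13 in aged mice. In all, 4 genes lay above and 5 below at both ages, while 46.0% of 12446 genes kept their side. That share includes genes with as few as 100 UMIs, where counting error can decide the side. In CPM, Pecam1, Cdh5, Ptprb, Vwf and Rgcc lay on opposite sides of no difference at the young and aged comparisons. The count depends on the scale, the genes are not replicates, and it is given as a description. On this scale 1 gene was higher and 2 lower by 1.5-fold in young mice, against 15.1% and 20.5% of genes, and 0 in aged mice, against 11% and 8.97%. Between the sham libraries it was 0, against 9.1% and 10.4%, and between the I/R libraries 1 higher and 1 lower, against 16.1% and 11.9%. In aged over young sham 9 of the 10 genes still lay above the median of their length class, and 1 below. By definition such a median has as many genes above it as below.

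**Figure D2:**
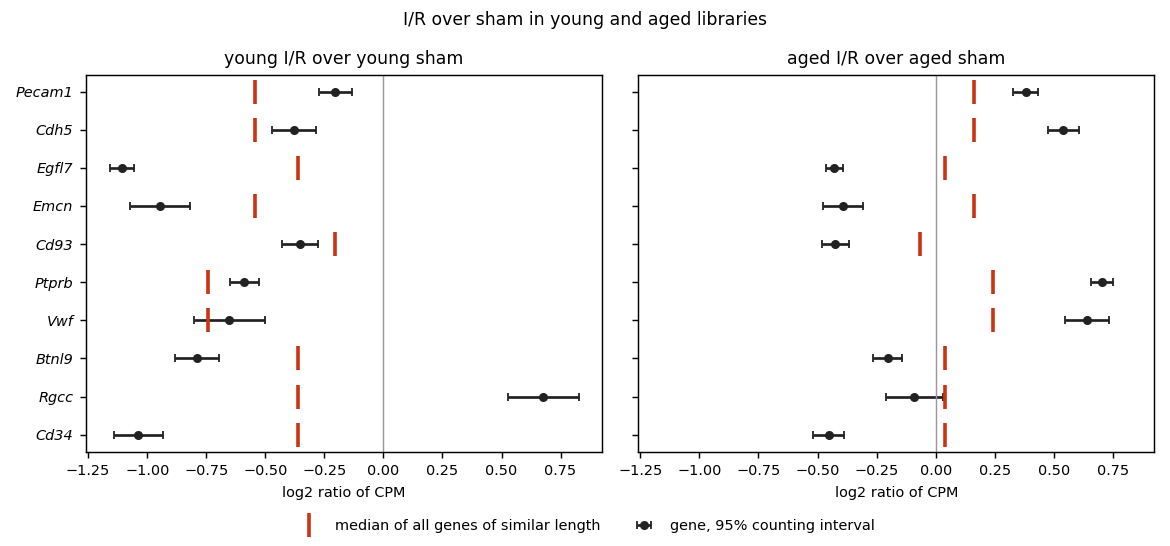
Log2 ratio of CPM of I/R over sham for each of the 10 genes in young (left) and aged (right) libraries, as points with 95% counting intervals, 1 library per condition. Red ticks are the median of all genes in the same class of gene length. Pecam1, Cdh5, Ptprb and Vwf lie to the right of their tick at both ages, Egfl7, Emcn, Cd93, Btnl9 and Cd34 to the left, and Rgcc changes side.

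The same values can be set against the other 9 genes in place of all genes, which keeps their order and is no further support. Pecam1 was above the others by 0.51 (0.44 to 0.58) in young and 0.42 (0.37 to 0.47) in aged I/R over sham, and Cdh5 by 0.29 (0.19 to 0.38) and 0.58 (0.51 to 0.64). Egfl7 was below them at -0.63 and -0.59, Cd34 at -0.42 and -0.50, Emcn at -0.32 and -0.42 and Btnl9 at -0.16 and -0.24. Ptprb and Vwf were near the others in young mice, at 0.065 and -0.011, and above them in aged mice, at 0.82 and 0.65. Cd93 changed from 0.33 to -0.49 and Rgcc from 1.37 to -0.11. The log2 response of aged mice minus that of young mice was 1.29 for both Ptprb (1.22 to 1.37) and Vwf (1.12 to 1.47), -0.77 (-0.96 to -0.58) for Rgcc and -0.074 (-0.17 to 0.021) for Cd93. With gene-wise scaling Ptprb and Vwf kept a difference of 0.76 each, Rgcc stood at -1.30 and Cd93 at -0.60 (-0.70 to -0.51), Cdh5 at 0.39 and Egfl7 at 0.15, while those of Pecam1, Emcn, Btnl9 and Cd34 came to 0.055, 0.025, 0.056 and 0.054, with intervals that included 0.

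Whether a barcode holds these genes together, as that of an endothelial cell would, was examined next. For each of the 45 pairs, the barcodes with a UMI of both genes were counted and divided by the number expected if the genes fell independently among barcodes of like depth. Young sham had 3323 such pairs against 2925 expected, a ratio of 1.14 (1.10 to 1.18). The ratio was 1.02 (0.98 to 1.06) in young I/R, 1.07 (1.04 to 1.09) in aged sham and 1.04 (1.02 to 1.05) in aged I/R. The genes therefore lay together in a barcode little more often than chance gives at the same depth, with 33161 pairs against 31544 over the 4 libraries, a ratio of 1.05 (1.04 to 1.06).

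The deepest barcodes were not much different. In the 1% of barcodes with the most UMIs the ratio was 1.23 (1.02 to 1.48) in young sham, 0.97 (0.79 to 1.18) in young I/R, 1.11 (1.0 to 1.23) in aged sham and 1.08 (1.01 to 1.14) in aged I/R. In young sham the summed level of the 10 genes was 1064 CPM in the 20% of barcodes with the fewest UMIs, 801 CPM in the 20% with the most and 560 CPM in the deepest 1%. Over 5 such classes of depth the level lay within 606 to 636 CPM in young I/R, 928 to 971 in aged sham and 925 to 987 in aged I/R.

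Among single pairs, Pecam1 with Vwf was found together most often over chance, in 565 barcodes against 463 expected, a ratio of 1.22 (1.12 to 1.33), with an interval above 1 in 2 of the 4 libraries and values from 1.10 to 1.52. Emcn with Vwf had 1.18 (1.01 to 1.37), with an interval above 1 in 0 of the libraries, and values from 0.85 to 1.35. Btnl9 with Rgcc had 1.16 (0.997 to 1.34), Cd93 with Rgcc 1.14 (0.989 to 1.3), and Egfl7 with Emcn 1.13 (1.06 to 1.21). Vwf with Rgcc was lowest, at 0.93 (0.73 to 1.16). A second UMI of the same gene was found in a barcode 1.72 times (1.46 to 2.02) as often as chance gives for Vwf, 1.71 times (1.26 to 2.27) for Rgcc, 1.45 times (1.18 to 1.75) for Emcn and 1.03 times (0.93 to 1.15) for Cdh5.

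**Figure D3:**
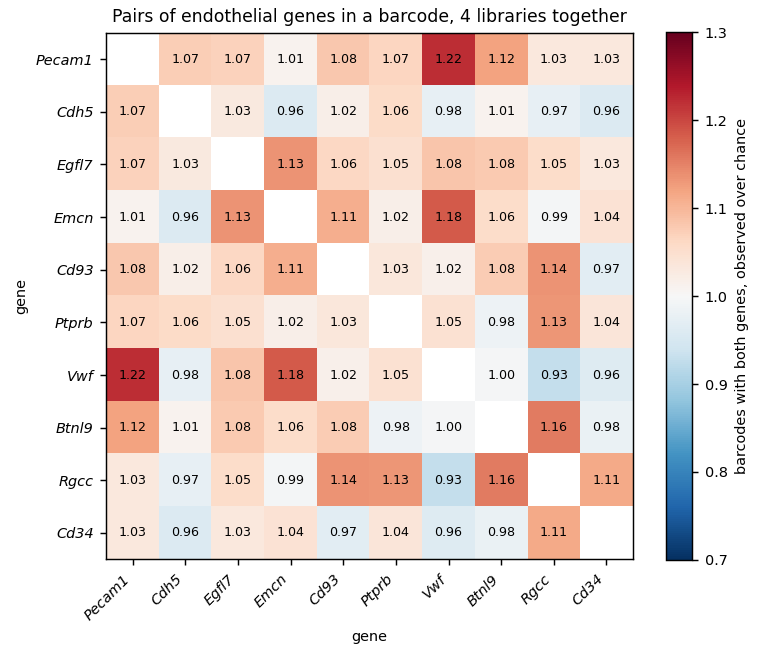
Ratio of observed to expected barcodes with both genes for each of the 45 pairs, over the 4 libraries together and at equal depth, on a colour scale from 0.7 to 1.3 around a white centre at 1. Values run from 0.93 for Vwf with Rgcc to 1.22 for Pecam1 with Vwf.

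At 250 UMIs per barcode, 2.30% (2.17 to 2.45) of young sham barcodes held at least 2 of the 10 genes, where chance gives 2.0%. The share was 1.01% (0.95 to 1.08) in young I/R against 0.961% by chance, 2.24% (2.14 to 2.34) in aged sham against 2.08%, and 2.18% (2.08 to 2.27) in aged I/R against 2.19%. Each barcode was thinned at random to this depth, and 48311, 14318, 12624 and 0 shallower barcodes were left out. Without thinning the shares were 3.02%, 2.34%, 5.60% and 14.2%, highest in the deepest library.

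Barcodes with hemoglobin RNA, which red cells carry, were set beside the others. Red cells should lack the 10 genes, but 5 hemoglobin UMIs in 250 do not show that a barcode holds a red cell alone. At 250 UMIs, 20.2% (16.9 to 23.9) of 539 young sham barcodes with at least 5 hemoglobin UMIs held a UMI of any of the 10 genes, against 20.7% of the other barcodes. The same shares were 13.7% (10.9 to 16.8) against 14.5% in young I/R, 25.5% (19.4 to 32.5) against 21.2% in aged sham and 14.9% (8.93 to 22.8) against 21.4% in aged I/R. Their median depth before thinning was 346 against 330 UMIs, 439 against 395, 426 against 413, and 793 against 675. A UMI of these genes in a barcode is thus not read here as expression by the cell of that barcode, and the sums over a library are read as those of bulk tissue.

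Other gene lists were measured in the same way. Pairs within 22 other pan-endothelial genes had a ratio of 1.05 (1.04 to 1.06) over the 4 libraries, pairs within 10 capillary genes 1.02 and within 10 cardiomyocyte genes 1.0. Cardiomyocyte genes are in so many barcodes that presence alone leaves their ratio little room above 1. Their 45 pairs were seen 9720594 times, against 33161 for the 10 endothelial genes. Their ratio is therefore not comparable with those of sparse lists. Ratios were higher for fibroblast genes at 1.09, mural genes at 1.08, macrophage genes at 1.16, neutrophil genes at 1.34 and erythroid genes at 1.32. Other endothelial lists were also higher, at 1.16 for arterial, 1.18 for venous, 1.15 for endocardial, 1.10 for lymphatic and 1.20 for activation genes. Angiogenic genes had 1.03. In young sham the arterial ratio was 1.57, the lymphatic 1.47 and the endocardial 1.44, each the highest of the 4 libraries. In young sham the erythroid ratio was 2.05 (2.01 to 2.10) and the macrophage ratio 1.65 (1.52 to 1.79), so this measure was well above 1 for other lists in the same barcodes.

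**Figure D4:**
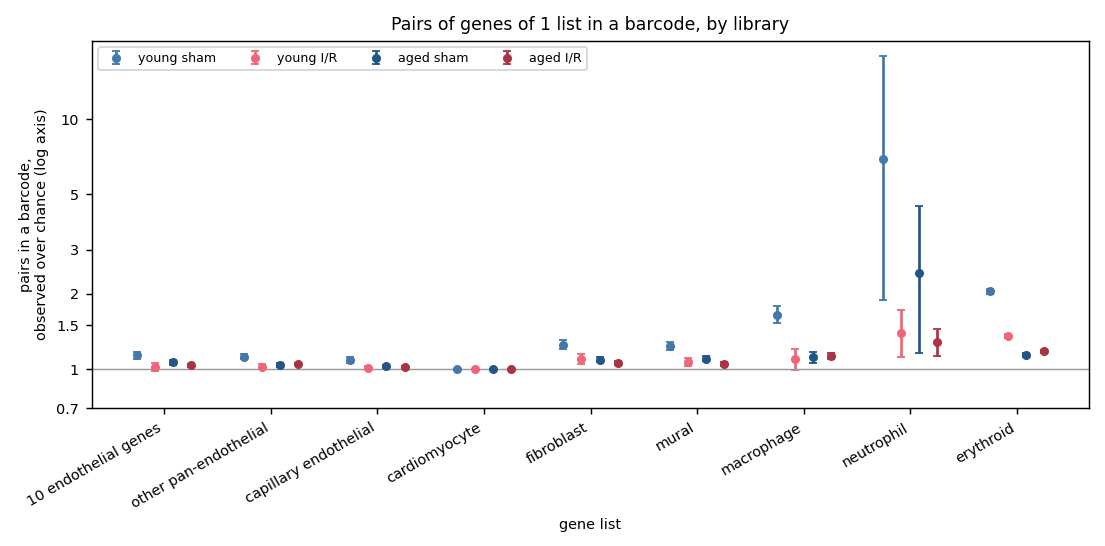
Ratio of observed to expected pairs of genes in a barcode at equal depth, by gene list (x axis) and library (colour), with 95% counting intervals on a log axis. The 10 endothelial genes lie between 1.02 and 1.14, near the line at 1, while erythroid genes reach 2.05 in young sham and neutrophil genes, with 4 pairs there, have the widest interval. Arterial, venous, endocardial, lymphatic, activation, angiogenic and platelet lists are not drawn.

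Across lists, the 10 genes lay with other pan-endothelial genes at 1.05 (1.04 to 1.06) times chance and with cardiomyocyte genes at 0.999 (0.997 to 1.0). The cardiomyocyte value has the limit given above, as those genes are in so many barcodes. Cd34 lay with fibroblast genes at 1.09 (1.06 to 1.12), with values from 1.06 to 1.28 in the 4 libraries, while the other 9 genes had 0.999 to 1.03. Vwf lay with endocardial genes at 1.17 (1.10 to 1.25), with venous genes at 1.16 (1.05 to 1.28) and with arterial genes at 1.12 (1.04 to 1.22). These are small excesses in sparse counts and are given as a description.

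Among 13544 genes for which each library gave 5 or more expected pairs, 0 reached a ratio of 2 with the 10 genes, the median was 1.01 and the 99th percentile 1.15. The 15 genes outside the 10 whose lowest ratio among the 4 libraries was highest had lowest ratios from 1.11 to 1.23, and were led by Rps6kl1, Gm3739, Gm10578, Rassf10 and Zfp423. None of these 15 is in any of the gene lists. By the same measure the 10 genes themselves ranked from 158 for Pecam1 to 6900 for Cd34. The ranking takes no account of counting error, which is widest for genes with few pairs. In aged sham Gm10578 had 7 pairs against 5.28 expected, and Pecam1 1765 against 1579. The ranks are therefore not read as degrees of likeness.

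Of 22 other pan-endothelial genes, 2 were at least 1.5-fold higher and 5 lower in young I/R, against 5.35% and 41.9% of all genes, with a median of -0.33. In aged I/R 2 were higher and 4 lower, against 14.4% and 7.43%, with a median of -0.12. With gene-wise scaling the counts were 3 higher and 1 lower in young I/R and 2 and 4 in aged I/R. Flt1, a receptor for VEGF that limits its action, had 160 and 134 CPM in young sham and I/R and 136 and 241 CPM in aged sham and I/R. Kdr, the main signalling receptor for VEGF, had 197, 105, 229 and 150 CPM in the same order, and was lower in both I/R libraries. Cldn5, the claudin of endothelial tight junctions, had 26.6, 25.9, 37.4 and 15.2 CPM, a log2 ratio of -1.30 in aged I/R over aged sham. Esam, another junction molecule, had 50.7, 68.5, 76.5 and 42.7 CPM, at 0.43 in young and -0.84 in aged mice. Both junction genes were thus lower in aged I/R, where Cdh5 and Pecam1 were higher.

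Of 10 capillary genes, 4 were at least 1.5-fold higher and 2 lower in young I/R, and 2 were higher and 0 lower in aged I/R. With gene-wise scaling these were 6 and 2, and 1 and 0. The shares of all genes to set beside the counts of every list here are 5.35% higher and 41.9% lower in young I/R. In aged I/R they are 14.4% and 7.43%. With gene-wise scaling the shares are 17.6% and 21% in young and 11.2% and 10.2% in aged I/R. Cd36, the fatty acid transporter that cardiomyocytes also express, had 615 and 1151 CPM in young sham and I/R and 891 and 858 CPM in aged sham and I/R. Timp4, an inhibitor of matrix metalloproteinases that is also made by cardiomyocytes, was higher at both ages, by log2 ratios of 1.39 and 1.53. The transcription factors Tcf15 and Meox2, which act in the capillary endothelium of the heart, were lower in young I/R at -1.42 and -1.39 and near sham in aged I/R at 0.072 and -0.12.

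Of 11 arterial genes, 6 were lower and 0 higher in young I/R, against 41.9% and 5.35% of all genes. In aged I/R 3 were higher and 1 lower, against 14.4% and 7.43%. With gene-wise scaling 4 were lower and 3 higher in young I/R, and the aged counts were as before. Bmx, a kinase of arterial and endocardial endothelium, was at -1.71 in young and 0.92 in aged mice. Of 8 endocardial genes, 5 were lower and 0 higher in young I/R, and 2 were higher and 1 lower in aged I/R, against 3 and 1, and 1 and 1, with gene-wise scaling. Hmcn1, a large matrix protein, had 212 and 28.9 CPM in young sham and I/R and 82.4 and 86.6 CPM in aged sham and I/R. Of 7 lymphatic genes, 4 were lower and 1 higher in young I/R and 1 lower and 2 higher in aged I/R, and with gene-wise scaling the young counts were 2 and 1. Prox1, a lymphatic factor that cardiomyocytes also express, was at -1.24 and 0.23.

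Of 6 venous genes with at least 100 UMIs, 2 were higher and 2 lower in young I/R, against 5.35% and 41.9% of all genes. Of 5 in aged I/R, 2 were higher and 1 lower, against 14.4% and 7.43%. With gene-wise scaling these were 2 and 1, and 1 and 1. Aplnr, the receptor for apelin, was lower at both ages, at 18.1 and 3.58 CPM in young sham and I/R and 13.4 and 3.34 CPM in aged sham and I/R. Selp, the selectin that endothelial cells and platelets show on activation, was higher at both ages, at 0.581, 3.81, 1.31 and 4.49 CPM. Ccl2, a chemokine for monocytes in the activation list, had 2.79, 22.6, 3.97 and 11.3 CPM. In that list 3 of 7 genes were higher and 2 lower in young I/R and 4 of 8 higher and 1 lower in aged I/R, or 4 and 0, and 4 and 2, with gene-wise scaling. Among angiogenic genes 2 of 8 were higher and 2 lower in young I/R and 0 of 9 higher and 4 lower in aged I/R. Gene-wise scaling gave 3 and 1 in young and the same counts in aged mice. Examples are Col4a1, a basement membrane collagen, at 204, 321, 176 and 246 CPM and Apln, the ligand of Aplnr, at -0.73 and -1.56.

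Markers of other cells moved with the same libraries. The summed log2 ratio of I/R to sham in young mice was -0.49 for 10 fibroblast genes, -0.45 for 10 mural genes, -0.54 for 11 macrophage genes, -0.32 for 10 cardiomyocyte genes, -0.39 for 5 erythroid genes and 0.24 for 7 platelet genes. With gene-wise scaling these came to -0.048, -0.0071, -0.10, 0.12, 0.052 and 0.68, so the cardiomyocyte and erythroid values turned. In aged mice the sums were -0.13, -0.046, 0.033, 0.45, -0.72 and 0.38, and the macrophage value turned to -0.054. Neutrophil genes were at 2.78 and 2.04. At both ages 6 of 6 were at least 1.5-fold higher, against 5.35% of all genes in young and 14.4% in aged I/R. The lower level of the 10 endothelial genes in young I/R thus came with lower sums of fibroblast, mural and macrophage genes. These lay near 0 once scaled. The other endothelial lists differed in direction. Their young sums were -0.29 for other pan-endothelial, 0.58 for capillary, -0.40 for arterial, -0.63 for venous, -1.78 for endocardial and -0.70 for lymphatic genes. Activation and angiogenic genes were at 0.53 and 0.51. In that order gene-wise scaling gave 0.15, 1.03, 0.039, -0.19, -1.34, -0.26, 0.97 and 0.96. Some of these sums also depend on single genes. In young I/R Cd36 held 45647 of 85185 capillary UMIs, and Col4a1 and Col4a2 held 12732 and 6676 of 21220 angiogenic UMIs. In young sham Hmcn1 held 5478 of 8644 endocardial UMIs. The young medians in CPM were 0.35 for capillary, -0.75 for endocardial and -0.19 for angiogenic genes. Of 8 angiogenic genes with at least 100 UMIs, 5 were below 0. Apart from Csf3 of the activation list in young sham, all these markers had UMIs in every library. The part of cell make-up was not tested.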

How the data were processed

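Droplet libraries of left ventricle were analysed, 1 per condition. According to the labels and the study's methods the authors made them with a 10x Chromium kit for transcript ends and aligned and counted them with Cell Ranger 6.0.2 on the mm10 genome. The deposited values are raw UMI counts for each gene in each barcode, not scaled. Authors' clusters and cell names were not used here.

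Counts were summed over all barcodes and divided by the library total. Ratios have exact conditional intervals, levels exact Poisson and shares exact binomial (Clopper-Pearson) intervals, at 95%. As a condition is a single library, nothing was tested between conditions. Genes were compared where both libraries together gave 100 UMIs or more, and 1.5-fold was the limit for calling it higher or lower. Pairs were set against independence within 20 depth bins, and shares were taken after thinning to 250 UMIs. Gene positions are from GENCODE on GRCm38, and sequences from RefSeq. No barcode was named as a cell and no doublet caller was run, so a barcode may hold RNA of several cells. The calculations were tested on simulated counts. Python 3.11.15, numpy 2.4.6, scipy 1.17.1, pandas 2.3.3 and matplotlib 3.10.9 were used.

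The genes and the 15 other lists were chosen with earlier results of these data known. Besides the 10 genes, the text names from each list the genes with the most UMIs and the largest ratios, some of which are printed, and the first of the 15 genes most often paired with the 10, of which the rest are not reported here by name. Alternatives were scaling by the median of gene-wise ratios, totals without Gm42418, Malat1 and mitochondrial genes, barcodes with at least 200 detected genes, barcodes found in 1 library only, a 2-fold limit, genes with at least 1 UMI in each library, 1 or 100 depth bins and thinning to 250 or 400 UMIs. Gene length classes, hemoglobin-rich barcodes and classes of depth were added after the values had been seen.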

Additional observations from a re-analysis of the deposited data

Results flagged for a closer look

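Pecam1, Cdh5, Ptprb and Vwf were lower in I/R than in sham in young mice and higher in aged mice, with counting intervals on opposite sides of 0. The log2 ratios in young and aged mice were -0.20 and 0.38 for Pecam1, -0.38 and 0.54 for Cdh5, -0.59 and 0.70 for Ptprb and -0.65 and 0.64 for Vwf. With 1 library per condition the difference between the ages was not tested. With gene-wise scaling Pecam1 and Cdh5 were higher in I/R at both ages, at 0.24 and 0.29 for Pecam1 and 0.066 and 0.45 for Cdh5, while Ptprb and Vwf kept opposite directions, at -0.15 and 0.62 and at -0.21 and 0.55. Relative to genes of similar length they did not: Ptprb stood at 0.15 and 0.46 and Vwf at 0.090 and 0.40. The young Vwf interval there included 0. The median of all genes over 100 kb was -0.74 in young and 0.24 in aged mice.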

How the results depend on the processing

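The summed level of the 10 genes in young I/R over young sham was -0.64 and moved to -0.20 with gene-wise scaling, -0.50 with totals without Gm42418, Malat1 and mitochondrial genes and -0.45 with barcodes of at least 200 detected genes, always lower. Aged over young I/R moved from 0.63 to 0.20 and 0.46 under the first 2 of these. The small differences turned: aged I/R over aged sham from 0.014 to -0.072 and -0.076 under the same 2, and aged over young sham from -0.031 to 0.11, 0.044 and 0.15 under all 3. The 6 genes lower in young I/R became 2 with gene-wise scaling, 2 with a 2-fold limit and 2 relative to genes of similar length, and the 1 higher became 0 at 2-fold. The 2 higher in aged I/R became 1 with gene-wise scaling, 1 with the reduced totals, 0 at 2-fold and 0 relative to genes of similar length. The 7 higher in aged over young I/R became 1 with gene-wise scaling, 1 at 2-fold and 1 relative to genes of similar length, and the 1 lower became 0 at 2-fold and 0 without barcode sequences shared between libraries. Relative to genes of similar length, Ptprb and Vwf in young I/R turned from -0.59 and -0.65 to 0.15 and 0.090. Without depth bins the pair ratios were 1.22 and 1.12 in young sham and I/R and 1.19 and 1.15 in aged sham and I/R, and after thinning to 250 UMIs 1.06 in young I/R and 1.0 in aged I/R. Thinned to 400 UMIs, 3.87%, 2.35%, 4.94% and 5.15% of barcodes held at least 2 genes. Among the values of single genes and of the shares of all genes, 80 stayed within the counting interval of the value given. In that group 126 moved beyond it and the 2 named turned, where only genes past 1.5-fold at first could count as turned. Smaller values that changed sign, such as Pecam1, Cdh5 and Cd93 in young I/R with gene-wise scaling, are not among those 2. Among the sums, counts, pairs and shares of barcodes 55 stayed, 28 moved and 5 turned. The cause of these shifts was not tested. No paired analysis was possible because each condition has 1 library. With genes of at least 1 UMI in each library, the share of all genes at least 1.5-fold lower in young I/R was 49.0%. Single barcodes were shallow: the median barcode of young sham held 244 UMIs.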
